A study of Homo sapiens with 10 samples.

Results

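SERPINB1, SERPINB2, SERPINB3, SERPINB4, SERPINB5, SERPINB7, SERPINB8, SERPINB10, SERPINB12 and SERPINB13 are genes of clade B of the serpins, the protease inhibitors that stay largely inside the cell, and several of them are typical of squamous epithelium. They were taken by gene name from the deposited table, as 10 of its 58735 genes. RNA was sequenced from A253 cells, a human line from a squamous cell carcinoma of the salivary gland, in 3 groups of 2 libraries. The control group carried a guide RNA against dTomato, a reporter gene that human cells lack, while Cl1 and Cl10 were DUSP1-/+ clones in which CRISPR/Cas9 had removed exon 2 of DUSP1 from part of the alleles. By western blot the study saw no DUSP1 protein in either clone. All 3 groups were grown in DMEM with serum, and guides and Cas9 were brought in with vectors that confer resistance, Cas9 with selection by blasticidin. The clones were grown up from individual cells, and the labels do not say whether the control was a clone or a pool. Each clone is 1 cell line, so that clone and genotype cannot be told apart within a clone, and, while the study speaks of biological replicates in general, the sources used here do not say how the libraries of a group were obtained, so the p-values measure only the spread between these libraries.

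A serpin presents an exposed loop near its end as bait. When a target protease cuts the loop, the serpin snaps into another fold and traps the enzyme in a covalent complex, so that each molecule works only once, and the residues of the loop largely set which protease is caught. Clade B serpins have no classical signal peptide. In stratified epithelia they act against proteases that leak from lysosomes or come from leukocytes, and SERPINB3 and SERPINB4, once known as squamous cell carcinoma antigens, have been used as serum markers of squamous tumours.

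Sequence matters first for SERPINB3 and SERPINB4, neighbours on chromosome 18 whose reads could be confused. Their canonical transcripts are both 1707 bases long and differ at 74 bases, an identity of 95.7%, and their coding sequences of 1170 bases differ at 56. No stretch of 150 bases was shared by any pair of the 10 genes. At 50 bases, 24.9% of the stretches of SERPINB3 were also found in SERPINB4, while none of the other 44 pairs of members shared a stretch of that length. The 90 coding bases with the most differences lie in exon 8 of 8 and are shown since they are where reads of these genes are most easily told apart. They are at chr18:63655772-63655861 in SERPINB3 and chr18:63637834-63637923 in SERPINB4 (hg38, minus strand), written 5′ to 3′ with the 13 differing bases in capitals.
SERPINB3: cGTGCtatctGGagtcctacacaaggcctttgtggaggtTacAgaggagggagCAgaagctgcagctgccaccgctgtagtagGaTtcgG
SERPINB4: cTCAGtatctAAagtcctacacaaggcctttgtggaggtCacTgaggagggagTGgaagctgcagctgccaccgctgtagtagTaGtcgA
The 250 bases before the start of transcription are closer still. In the RefSeq promoters (GRCh38.p14, minus strand), at chr18:63661894-63662143 for SERPINB3 and chr18:63644257-63644506 for SERPINB4, only the 3 bases in capitals differ, an identity of 98.8%.
SERPINB3: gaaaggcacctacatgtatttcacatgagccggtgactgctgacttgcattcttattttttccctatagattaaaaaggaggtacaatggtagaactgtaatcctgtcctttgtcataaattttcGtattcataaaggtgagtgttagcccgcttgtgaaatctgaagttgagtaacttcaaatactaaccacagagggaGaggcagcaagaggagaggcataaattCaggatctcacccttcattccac
SERPINB4: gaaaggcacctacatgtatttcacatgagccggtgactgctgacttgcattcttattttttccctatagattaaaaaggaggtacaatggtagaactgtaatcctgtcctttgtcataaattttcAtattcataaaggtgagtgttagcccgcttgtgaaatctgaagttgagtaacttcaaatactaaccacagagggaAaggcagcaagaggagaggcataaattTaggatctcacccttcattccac
These near-identical promoters stand before a pair of genes whose counts moved to different extents in Cl10, as given with the values of SERPINB3 and SERPINB4.

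RefSeq promoters were found for 9 of the 10 genes, in 12 entries, and were searched on both strands for TGANTCA (N is any base). This is a relaxed form of the AP-1 site, whose usual middle base is C or G. AP-1 (JUN and FOS proteins) acts downstream of the MAP kinases that DUSP1 dephosphorylates, which is why these letters were chosen. TGANTCA was present in the 250 bases before the start in 6 of the 9 genes (SERPINB2, SERPINB5, SERPINB7, SERPINB8, SERPINB12 and SERPINB13) and in 7 of the 12 entries, and in 6.57% of all 35116 promoters of the same length. It was absent from the windows of SERPINB1, SERPINB3 and SERPINB4. The middle base was C or G in matches of SERPINB7, SERPINB8 and SERPINB13. In the only matches of SERPINB2, SERPINB5 and SERPINB12 it was A or T. The share of all promoters with C or G there is not given here. The promoter of SERPINB5 (chr18:63476708-63476957, plus strand) and that of SERPINB2 (chr18:63887455-63887704, plus strand, inside the annotated gene, which also has longer transcripts) are shown because SERPINB5 rose in both clones and SERPINB2 fell in Cl1. Capitals mark TGANTCA, 146 bases before the start of SERPINB5, and in SERPINB2 both TGANTCA and TATAAA, the latter 30 bases before the start.
SERPINB5: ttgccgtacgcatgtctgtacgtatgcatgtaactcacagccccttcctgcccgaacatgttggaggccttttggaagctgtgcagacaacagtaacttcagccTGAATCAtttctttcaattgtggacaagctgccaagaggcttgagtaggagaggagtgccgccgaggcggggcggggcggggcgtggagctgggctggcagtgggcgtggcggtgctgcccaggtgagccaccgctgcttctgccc
SERPINB2: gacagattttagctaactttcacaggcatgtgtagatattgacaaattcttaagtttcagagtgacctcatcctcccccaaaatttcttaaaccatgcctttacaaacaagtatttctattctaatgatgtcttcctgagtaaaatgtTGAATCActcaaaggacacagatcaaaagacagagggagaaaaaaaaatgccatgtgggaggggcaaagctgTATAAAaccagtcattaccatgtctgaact
For SERPINB13 and SERPINB8 the letters are shown with 11 bases on either side. The SERPINB13 site is at chr18:63587245-63587273, 87 bases before the RefSeq start. For SERPINB8 they are at chr18:63969885-63969913 and chr18:63970042-63970070, 185 and 28 bases before the RefSeq start. The SERPINB13 site and the proximal SERPINB8 site lie inside the annotated genes.
SERPINB13: tcgagagatgcTGACTCAgttggtctggg
SERPINB8, distal: ggagtcaaacgTGAATCAacggtgaaaaa
SERPINB8, proximal: tcgaacggttcTGAGTCAtctgccggaag
The letters CATTGT, bound by SOX factors, were found in 4 of the 9 genes (SERPINB3, SERPINB4, SERPINB7 and SERPINB13). By entry they were found in 4 of 12, against 9.29% of all promoters. The matches of SERPINB3 and SERPINB4 lie at the same place in their near-identical windows, 167 bases before the start. TATAAA was found in 4 genes (SERPINB2, SERPINB7, SERPINB8 and SERPINB12) and in 4 of the 12 entries, against 10.7% of all promoters. Genes with TGANTCA moved in either direction, and the matches are letters in a window, with no measurement of binding.

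The libraries held 47016495 to 70986593 counts. DUSP1 itself had 743 and 634 normalized counts in the control, 303 and 353 in Cl1 and 494 and 415 in Cl10, so every clone library was below both control libraries (log2 fold change -1.07 in Cl1, adjusted p = 0.000292, and -0.59 in Cl10, adjusted p = 0.0113, both from edgeR). To make the libraries comparable, counts were divided by TMM factors and brought to an average depth (normalized counts), a scale on which the floor of 3 counts is 2.53 to 3.58. The summed squamous and basal keratinocyte markers (KRT5, KRT14, KRT17, KRT6A, TP63 and DSG3) lay between 676144 and 781502 normalized counts, and all 6 genes were abundant in every library, as the label of a squamous line requires. The summed general epithelial markers (EPCAM, CDH1, KRT8 and KRT18) were 82515 and 84470 in Cl10 against 137972 to 165432 in the other libraries, with KRT8 at -1.33 and KRT18 at -0.85 (log2, Cl10 against the control), while CDH1 rose by 0.35 and EPCAM did not pass (-0.10, 95% interval from -0.31 to 0.10), and the part of this in the serpin values of Cl10 was not tested. The leukocyte markers were nearly all CD14, since PTPRC, the gene of the pan-leukocyte antigen CD45, had 2 to 14 counts per library. The fibroblast markers (COL1A1, COL1A2, COL3A1, DCN and PDGFRB) were nearly all COL1A1 and COL3A1. Their sum was 1713 and 1809 normalized counts in Cl10 against 2545 to 2862 in the other libraries. The endothelial markers (PECAM1, VWF and CDH5) summed to 157 to 446 and were mostly VWF. The part of these in the serpin values was not tested.

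Of the 10 genes, 8 had enough counts to be tested. In Cl1, 4 of the 8 passed the test against the control (adjusted p under 0.05 in edgeR's quasi-likelihood test), where 25.1% of the 20153 genes tested passed. SERPINB5 and SERPINB13 rose and SERPINB1 and SERPINB2 fell, beside 12.4% of all genes that rose and 12.8% that fell. In Cl10, 6 of the 8 passed, where 42.5% of 19875 genes passed. SERPINB5 and SERPINB8 rose and SERPINB1, SERPINB3, SERPINB4 and SERPINB13 fell, beside 20.6% of all genes that rose and 21.8% that fell. In the direct comparison of Cl10 with Cl1, 7 of the 8 passed, all but SERPINB5, where 49% of 19818 genes passed. SERPINB2, SERPINB7 and SERPINB8 were higher in Cl10 and the other 4 lower, beside 24.9% of all genes that were higher and 24.1% that were lower. With a log2 fold change above 1 in size also required, SERPINB2 remained in Cl1 (7.55% of all genes), SERPINB1, SERPINB3 and SERPINB4 in Cl10 (13.4%), and these 4 with SERPINB13 between the clones (10.8%). The median log2 fold change of the 8 genes was 0.05 in Cl1, -0.62 in Cl10 and -0.46 between the clones, while over all genes tested it was -0.01, -0.01 and 0.00 (-0.0012). Both clones were set against the same control libraries, and their values are therefore given side by side. SERPINB5 was the only member that rose in both clones and SERPINB1 the only member that fell in both, and SERPINB13 passed in opposite directions. The share of all genes with each of these joint patterns is not given here, so they are not read as particular to the members.

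**Figure D1:**
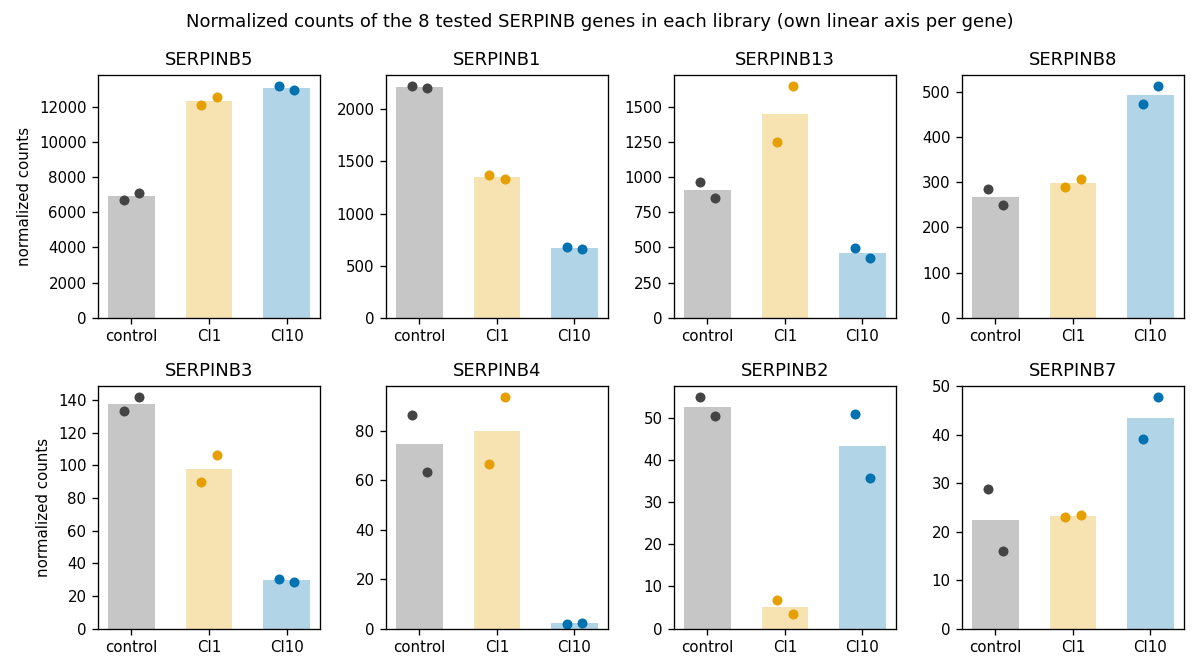
Normalized counts (vertical axes, linear and separate for each gene) of the 8 tested SERPINB genes in the control, Cl1 and Cl10, with points for the 2 libraries of a group and bars for their mean. SERPINB4 is close to 0 in Cl10 and SERPINB2 in Cl1, while SERPINB5 lies between 12089 and 13154 in both clones.

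SERPINB5, or maspin, is a serpin that does not inhibit proteases by the trapping mechanism and is expressed in basal cells of many epithelia. The gene (ENSG00000206075, chr18:63476958-63505085, plus strand, hg38) was by far the most abundant member. It had 6701 and 7103 normalized counts in the control, 12089 and 12575 in Cl1, and 13154 and 12931 in Cl10. All 4 clone libraries were above both control libraries, and the means were 6902 ± 284 in the control, 12332 ± 344 in Cl1 and 13042 ± 158 in Cl10 (SD, n = 2). SERPINB5 rose by 0.84 on the log2 scale in Cl1 (standard error 0.116, adjusted p = 0.00027, edgeR) and by 0.92 in Cl10 (standard error 0.0813, adjusted p = 0.000265, edgeR). In bulk RNA, more cells that express a gene and more RNA per cell cannot be told apart, here as for each gene below. Between the clones the difference was 0.08 on the log2 scale, with a 95% interval from -0.04 to 0.21 and an adjusted p of 0.257 in edgeR. It passed without Cl1 replicate 2 (0.10, adjusted p = 0.0445, edgeR). A pseudogene and an unnamed transcript inside the gene drew 3 to 12 counts each per library.

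Among the inhibitors of serine proteases, SERPINB1 inhibits the neutrophil enzymes elastase, cathepsin G and proteinase 3. It is the only member on chromosome 6 (ENSG00000021355, chr6:2832332-2841959, minus strand). SERPINB1 had 2219.7 and 2200.7 normalized counts in the control, 1373 and 1329 in Cl1, and 681 and 662 in Cl10. The groups formed 3 separate steps, control above Cl1 above Cl10, with SDs of 13.5, 31.1 and 13.4 normalized counts (n = 2 each). It fell by 0.71 on the log2 scale in Cl1 (standard error 0.106, adjusted p = 0.000498, edgeR) and by 1.71 in Cl10 (standard error 0.0823, adjusted p = 4.42e-05, edgeR). Cl10 was also below Cl1 (log2 difference -1.005, standard error 0.0799, adjusted p = 7.2e-07, edgeR). The next protein-coding clade B genes on chromosome 6 were SERPINB6 and SERPINB9. SERPINB6 is an inhibitor of cathepsin G and other serine proteases that most tissues express, and SERPINB9 is the granzyme B inhibitor of leukocytes. Between them and SERPINB1 lies SERPINB9P1, which fell in Cl10 (log2 fold change -1.83, 95% interval from -3.25 to -0.42, adjusted p = 0.0445, edgeR). In Cl1, SERPINB9P1 did not pass (0.14, 95% interval from -0.78 to 1.07). SERPINB6 had 3147 and 3458 normalized counts in the control, 2868 and 2777 in Cl1 and 2363 and 2191 in Cl10, and fell in Cl10 (log2 fold change -0.53, adjusted p = 0.00323, edgeR) but did not pass in Cl1 (-0.22, 95% interval from -0.46 to 0.01, adjusted p = 0.154, edgeR), though it passed there without control replicate 1 (-0.29, adjusted p = 0.02, edgeR). Without Cl10 replicate 2 the fall of SERPINB6 no longer passed (-0.48, adjusted p = 0.0604, edgeR). SERPINB9 had no count in any library, which allows at most 3 counts per library.

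SERPINB2, or plasminogen activator inhibitor 2, inhibits the plasminogen activators urokinase and tPA and is induced in stressed and differentiating keratinocytes. The gene (ENSG00000197632, chr18:63871692-63903888, plus strand) had 54.9 and 50.5 normalized counts in the control, 6.82 and 3.51 in Cl1, and 51.0 and 35.8 in Cl10. Cl1 stood apart from both other groups, which overlapped with each other. The fall in Cl1 was -3.29 on the log2 scale (standard error 0.445, adjusted p = 0.000233, edgeR). It rests on 11 counts in the Cl1 libraries against 112 in the control, a ratio of control to Cl1 of 9.76 after scaling, with a counting interval (95%, exact) of 5.25 to 20.1. In Cl10 the log2 fold change was -0.27 with a 95% interval from -0.91 to 0.38 (adjusted p = 0.469, edgeR). Cl10 was above Cl1 by 3.03 on the log2 scale (standard error 0.475, adjusted p = 0.000193, edgeR). An unnamed gene on the same strand overlaps SERPINB2 and SERPINB10 and is not a row of the table used here.

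SERPINB8 inhibits furin, the enzyme that processes many precursor proteins, and lies at the far end of the cluster (ENSG00000166401, chr18:63970029-64019779, plus strand). Its normalized counts were 285 and 250.1 in the control, 289.9 and 306 in Cl1, and 474 and 512 in Cl10. The Cl10 libraries were above all others, while the Cl1 libraries lay just above the control. SERPINB8 rose in Cl10 (log2 fold change 0.88, standard error 0.127, adjusted p = 0.00184, edgeR) and did not pass in Cl1 (0.15, 95% interval from -0.19 to 0.50, adjusted p = 0.52, edgeR). Cl10 exceeded Cl1 by 0.73 (standard error 0.115, adjusted p = 0.0002, edgeR). HMSD, which overlaps SERPINB8 on the same strand, drew 27 to 67 counts per library, with no passing difference in either clone.

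SERPINB7, or megsin, is a serine protease inhibitor of the upper epidermis, and loss of it causes a palmoplantar keratosis. The gene (ENSG00000166396, chr18:63752935-63805376, plus strand) was low, with 28.7 and 16.1 normalized counts in the control, 23.0 and 23.4 in Cl1, and 39.2 and 47.8 in Cl10. The Cl10 libraries were the highest, but the control libraries differed from each other by more than Cl1 differed from their mean. In Cl10 the log2 fold change was 0.93 with a 95% interval from 0.08 to 1.78 and did not pass (adjusted p = 0.0764, edgeR). It was 1.42 without control replicate 1, the higher of the control libraries (adjusted p = 0.00785, edgeR), and 0.59 without control replicate 2 (adjusted p = 0.218, edgeR). With no filter on low counts it was 0.91 and passed (adjusted p = 0.0307, edgeR). In Cl1 it was 0.03 (95% interval from -0.87 to 0.92, adjusted p = 0.971, edgeR). The difference of Cl10 from Cl1 was 0.91 (adjusted p = 0.0378, edgeR), and this call was lost in 7 of 12 alternative settings, among them the fits without any 1 of the 4 libraries (0.77 to 1.05, adjusted p up to 0.212, edgeR).

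Next come the inhibitors of cysteine proteases and SERPINB4. SERPINB3 inhibits papain-like lysosomal enzymes such as cathepsins L, S and K. It lies at chr18:63655197-63661893 (ENSG00000057149, minus strand), within the span of SERPINB11 on the opposite strand, which had at most 1 count per library. SERPINB3 had 133 and 142 normalized counts in the control, 89.5 and 106 in Cl1, and 30.4 and 28.7 in Cl10, so that the 3 groups did not overlap. It fell by 2.21 on the log2 scale in Cl10 (standard error 0.215, adjusted p = 0.000383, edgeR). In Cl1 the log2 fold change of -0.49 did not pass (95% interval from -0.95 to -0.04, adjusted p = 0.107, edgeR). Cl10 was below Cl1 by -1.72 (standard error 0.264, adjusted p = 0.000166, edgeR).

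SERPINB4 shares most of its sequence with SERPINB3 but differs in the reactive loop and is known to inhibit chymotrypsin-like serine proteases such as cathepsin G and chymase. It is the neighbour of SERPINB3, at chr18:63637259-63644256 (ENSG00000206073, minus strand). SERPINB4 had 86.2 and 63.3 normalized counts in the control, 66.5 and 93.6 in Cl1, and 1.96 and 2.39 in Cl10. The control and Cl1 overlapped, and each Cl10 library held 2 counts, under the floor of 3. The log2 fold change in Cl10 was -5.12 (standard error 0.454, adjusted p = 0.000273, edgeR). On 161 counts in the control against 4 in Cl10, the ratio of control to Cl10 was 35.3 with a counting interval of 13.5 to 131. In Cl1 the log2 fold change was 0.08 (95% interval from -0.51 to 0.66, adjusted p = 0.863, edgeR), and Cl10 differed from Cl1 by -5.20 (standard error 0.488, adjusted p = 2.86e-06, edgeR).

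Since reads from identical stretches could be given to either gene, SERPINB3 and SERPINB4 were also summed. The sum was 260 and 191 counts in the control, 183 and 171 in Cl1, and 33 and 26 in Cl10. SERPINB4 made up 39.2% and 30.9% of it in the control, 42.6% and 46.8% in Cl1, and 6.06% and 7.69% in Cl10, so the share was lower in both Cl10 libraries than in the other 4, and somewhat higher in the Cl1 libraries than in the control, differences that were not tested. The summed log2 fold change was -2.74 in Cl10, past the test, and -0.26 in Cl1, which did not pass (adjusted p = 0.335, edgeR). Set side by side, SERPINB4 was at -5.12 and SERPINB3 at -2.21 in Cl10, behind promoters that differ at 3 of 250 bases.

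SERPINB13, also called hurpin or headpin, inhibits cathepsins L and K and is expressed in oral and epidermal keratinocytes. The gene is at chr18:63586989-63604639 (ENSG00000197641, plus strand). It had 962 and 853 normalized counts in the control, 1252 and 1646 in Cl1, and 494 and 428 in Cl10. Both Cl1 libraries were above, and both Cl10 libraries below, the control libraries. SERPINB13 rose by 0.67 on the log2 scale in Cl1 (standard error 0.141, adjusted p = 0.00435, edgeR). Without Cl1 replicate 2, the higher library, the rise was 0.47 and no longer passed (adjusted p = 0.0813, edgeR). In Cl10 it fell by 0.97 (standard error 0.119, adjusted p = 0.000954, edgeR), and the direct difference of Cl10 from Cl1 was -1.64 (standard error 0.126, adjusted p = 5.63e-07, edgeR).

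The remaining members were at or near 0. SERPINB10, or bomapin, a gene of blood-forming cells, had 1 count in Cl10 replicate 2 and none elsewhere. SERPINB12, which inhibits trypsin-like enzymes, had 0 to 3 counts per library. Neither was tested, and a difference between groups was not detectable at this depth.

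**Figure D2:**
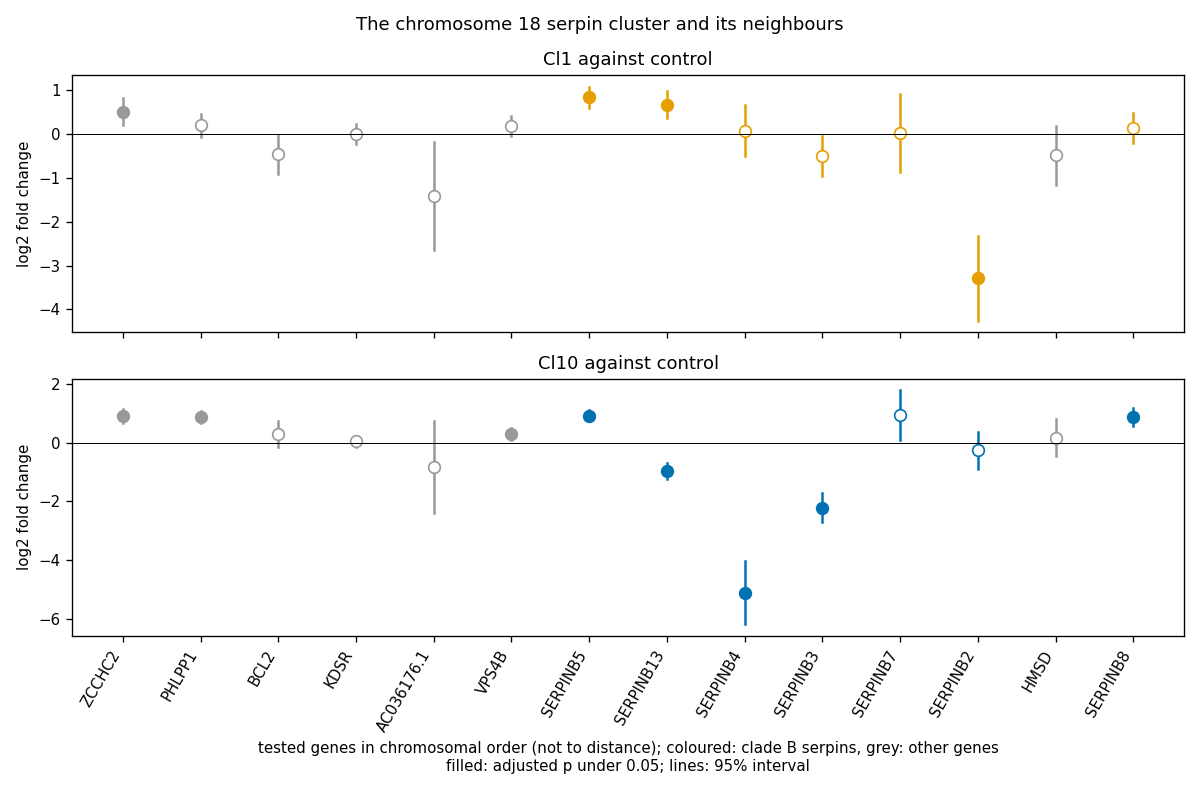
Log2 fold changes with 95% intervals (vertical axis) of tested genes in chromosomal order along the chromosome 18 cluster (horizontal axis, not to distance), for Cl1 against the control above and Cl10 against the control below. Coloured points are clade B serpins, grey points other genes, and filled points have an adjusted p under 0.05. In Cl10, SERPINB13, SERPINB4 and SERPINB3 lie below 0 between SERPINB5 and SERPINB7, whose points lie above it.

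On chromosome 18 the order of the tested members is SERPINB5, SERPINB13, SERPINB4, SERPINB3, SERPINB7, SERPINB2 and SERPINB8. In Cl10 the log2 fold changes along this order were 0.92, -0.97, -5.12, -2.21, 0.93, -0.27 and 0.88, so that the fallen genes are 3 neighbours and the members on either side did not fall. In Cl1 the same order read 0.84, 0.67, 0.08, -0.49, 0.03, -3.29 and 0.15, and SERPINB2, the only member of the cluster that fell, stood between members that did not pass. The median of the 50 tested genes nearest to the cluster was -0.03 in Cl1 and 0.05 in Cl10, and 0.20 between the clones. Of the tested genes of other families on the side of SERPINB5, none fell in Cl10, where ZCCHC2 was at 0.91, PHLPP1 at 0.88 and VPS4B at 0.30, all past the test, and KDSR at 0.05, BCL2 at 0.31 and AC036176.1 at -0.83 (95% interval from -2.40 to 0.73) did not pass. For SERPINB1 on chromosome 6 the median of the 50 nearest genes was 0.00 (0.00073) in Cl1 and 0.03 in Cl10. Single genes of other families around it did pass, in both directions. LINC01011 (-0.85 in Cl1 and -1.08 in Cl10) and NQO2 (-0.60 and -0.45) fell in both clones, and FAM50B fell in Cl1 (-0.44). TUBB2A rose in both clones (0.52 and 0.50). RIPK1 (0.68), SLC22A23 (0.72), MYLK4 (1.27) and AL590004.3 (2.27) rose in Cl10.

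**Figure D3:**
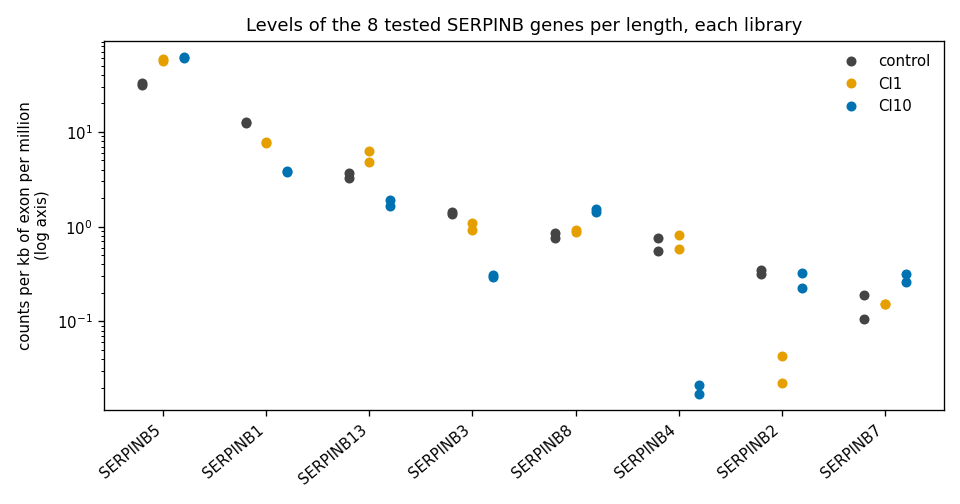
RPKM, the counts per kilobase of exon at a common depth (vertical axis, log scale) of the 8 tested SERPINB genes in each library, one point per library, ordered by the mean over the control. SERPINB5 is highest in every library, and SERPINB4 is the lowest of the 8 genes in Cl10 and SERPINB2 in Cl1.

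Levels of different genes were compared per length, as RPKM, the counts per kilobase of annotated exon at a common depth. The length was that of all annotated exons of a gene together, 1707 bases for SERPINB3, 5764 for SERPINB8 and 13201 for SERPINB6. It can exceed the length of the transcripts in use, which lowers the RPKM of such genes. The order of genes close in level, such as SERPINB3 and SERPINB8, may depend on this length and was not tested with another. In the control, SERPINB5 had a mean of 32.1, SERPINB1 12.6, SERPINB13 3.49, SERPINB3 1.40, SERPINB8 0.809, SERPINB4 0.660, SERPINB2 0.335 and SERPINB7 0.148. The control libraries of neighbours in this order did not overlap, except that SERPINB4 (0.761 and 0.560) reached into SERPINB8 (0.862 and 0.756). In Cl10 the means were 60.7 for SERPINB5, 3.84 for SERPINB1, 1.77 for SERPINB13 and 1.49 for SERPINB8, and SERPINB3 (0.301), SERPINB7 (0.287) and SERPINB2 (0.276) lay within each other's spread. SERPINB5 made up 61.0% and 63.4% of the summed RPKM of the 10 genes in the control, 78.7% and 77.6% in Cl1, and 88.3% and 88.5% in Cl10. The share of SERPINB1 was 24.8% and 24.1% in the control, 10.97% and 10.1% in Cl1, and 5.61% and 5.56% in Cl10. In each clone maspin thus took a larger share of the summed RPKM of the 10 members. SERPINB6, at a mean of 4.36 in the control, is not in this sum.

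**Figure D4:**
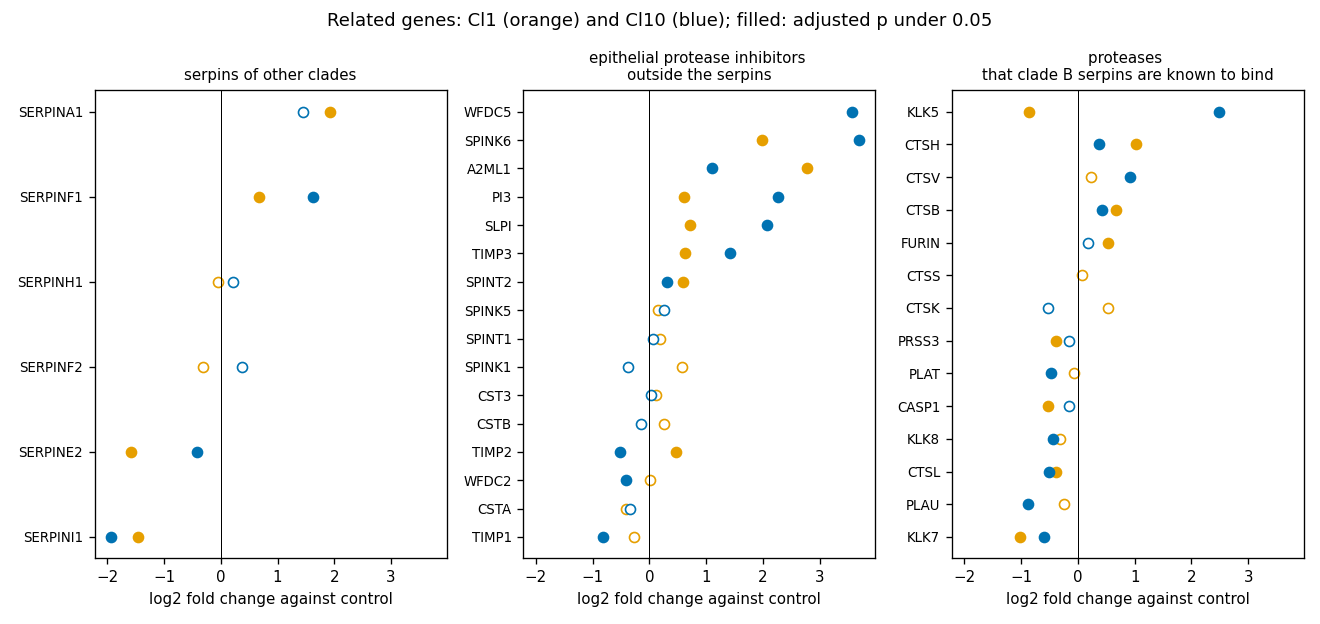
Log2 fold changes against the control (horizontal axes) of related genes, in Cl1 (orange) and Cl10 (blue), for serpins of other clades, other epithelial protease inhibitors and proteases that clade B serpins bind. Filled points have an adjusted p under 0.05. SPINK6, A2ML1, SLPI and TIMP3 are right of 0 in both clones, and KLK5 is left of 0 in Cl1 and right of it in Cl10.

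Genes of the same pathway were taken from lists. Of 13 serpins of other clades, 6 were tested, of which 2 rose and 2 fell in Cl1, and 1 rose and 2 fell in Cl10. Over all genes tested, 12.4% rose and 12.8% fell in Cl1, and 20.6% rose and 21.8% fell in Cl10. SERPINI1, a tPA inhibitor first known from neurons, fell by 1.46 in Cl1 and 1.94 in Cl10 on the log2 scale, and SERPINE2, an inhibitor of thrombin and plasminogen activators, by 1.58 and 0.42. SERPINF1, the non-inhibitory pigment epithelium-derived factor, rose by 0.67 and 1.62. All of these changes passed in edgeR, each with both libraries of a clone on the same side of both control libraries. The call of SERPINE2 in Cl10 was lost without Cl10 replicate 1 or 2 (-0.41 and -0.44).

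Of 20 epithelial protease inhibitors outside the serpins, 7 of the 15 tested rose and 0 fell in Cl1, where 12.4% of all genes tested rose. In Cl10, 7 of the 16 tested rose and 3 fell, where 20.6% of all genes rose and 21.8% fell. SPINK6, an inhibitor of kallikreins, had 27.9 and 35.4 normalized counts in the control, 149 and 97.1 in Cl1 and 399 and 411 in Cl10 (log2 fold changes 1.99 and 3.70). SLPI, an inhibitor of leukocyte elastase, had 557 and 674 in the control, 962 and 1050.3 in Cl1 and 2662 and 2517 in Cl10 (0.71 and 2.08). A2ML1, an inhibitor of the upper epidermis, rose by 2.78 in Cl1 and 1.11 in Cl10, and TIMP3, an inhibitor of metalloproteases, by 0.62 and 1.42. A2ML1 did not pass in Cl10 without Cl10 replicate 1 (0.95, adjusted p = 0.0956, edgeR), nor TIMP3 in Cl1 without Cl1 replicate 1 (0.50, adjusted p = 0.0811, edgeR). SLPI and SERPINB1 share elastase and cathepsin G as targets, and the former rose in both clones where the latter fell.

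Of 24 proteases that clade B serpins are known to bind, 14 were tested in Cl1, where 3 rose and 5 fell, and 13 in Cl10, where 4 rose and 5 fell, beside the same shares of all genes (12.4% and 12.8% in Cl1, 20.6% and 21.8% in Cl10). Of the targets of SERPINB2, PLAU (urokinase) was at -0.24 in Cl1 (95% interval from -0.49 to 0.01, not past the test) and fell by 0.88 in Cl10, and PLAT (tPA) was at -0.07 in Cl1 (95% interval from -0.30 to 0.16) and fell by 0.47 in Cl10. Both targets were therefore not past the test in Cl1, the clone in which SERPINB2 fell. PLAT did not pass without Cl10 replicate 1 (-0.41, adjusted p = 0.116, edgeR).

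Of the targets of SERPINB3 and SERPINB13, CTSL (cathepsin L) fell by 0.38 in Cl1 and 0.51 in Cl10, calls that were lost without either library of the clone concerned (-0.38 and -0.37 in Cl1, -0.51 and -0.50 in Cl10). The Cl1 call was also lost with the replicate block (-0.38, adjusted p = 0.0875, edgeR) and relative to the 50 nearest genes (-0.23, adjusted p = 0.184, edgeR). CTSK (cathepsin K) passed in neither clone (0.53 in Cl1, 95% interval from 0.06 to 0.99, and -0.53 in Cl10, from -0.99 to -0.07), but Cl10 was below Cl1 by -1.06 (adjusted p = 0.0014, edgeR). CTSV, a relative of cathepsin L, rose by 0.92 in Cl10 and was at 0.24 in Cl1 (95% interval from -0.00385 to 0.48), or at 0.32 and past the test without control replicate 2. CTSS had 4.90 to 10.5 normalized counts per library, was at 0.07 in Cl1 (95% interval from -1.15 to 1.29), and was not tested in Cl10. FURIN, the target of SERPINB8, rose by 0.54 in Cl1 (adjusted p = 0.00498, edgeR), where SERPINB8 did not pass, and was at 0.19 in Cl10 (95% interval from -0.03 to 0.40), where SERPINB8 rose. The FURIN call in Cl1 was lost without Cl1 replicate 1 (0.50), and FURIN passed in Cl10 without control replicate 1 (0.27) and relative to its 50 nearest genes (0.37). CTSG, the target of SERPINB1 and SERPINB4, and GZMB, that of SERPINB9, had no count in any library. Of the other proteases, KLK7, a kallikrein of the cornified layer, fell by 1.02 in Cl1 and 0.61 in Cl10, while CTSB rose by 0.68 and 0.43 and CTSH by 1.02 and 0.37. The calls of CTSB and CTSH in Cl10 were each lost without either Cl10 library (0.42 and 0.44 for CTSB, 0.32 and 0.42 for CTSH), and that of KLK7 without Cl10 replicate 2 (-0.54). KLK5, named after its values were seen, passed in opposite directions, with 87.0 and 84.8 normalized counts in the control, 46.9 and 48.0 in Cl1 and 433 and 526 in Cl10.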

How the data were processed

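Poly(A)-selected RNA of A253 cells was sequenced in paired ends, and the authors used HISAT2 for alignment to hg38 and HTSeq for counting. The submitters' processing notes also name StringTie and DESeq. The deposited values are raw counts per gene, without normalization. The annotation, the strand setting and the treatment of multi-mapped reads are not given in the sources used here, so overlapping and near-identical genes carry that uncertainty. The sgSOX2 libraries and their controls were not analysed here. Of the genes read for the lists, 1 that is no member was left out of them and of every count over them, and is not reported here. The members and gene lists were chosen with earlier results of these data known.

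Differences were tested with edgeR 4.0.16 in R 4.3.3 (filterByExpr, TMM, glmQLFit, glmQLFTest, Benjamini-Hochberg over all genes tested), each comparison on its own 4 libraries, and passed at an adjusted p under 0.05. Standard errors were derived from the F statistic. Genes named outside the members are the other clade B serpins, the known target proteases, and at most 4 genes per list that passed in the same direction in both clones, by the smaller absolute log2 fold change. Coordinates, exon lengths and transcripts come from GENCODE v44, and promoters from RefSeq. Floors and counting intervals (95%) cover counting error only. Scripts were tested on simulated data. Alternatives were scaling, low-count filters, DESeq2 1.42.0, 1 fit over 6 libraries, the replicate block, the 50 nearest genes as reference, a fold threshold, the sum of SERPINB3 and SERPINB4, and leaving out each library.

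Libraries of a group differed by more than counting noise. Of genes with at least 100 counts in the pair, 58.5%, 47.4% and 23.6% had an unadjusted p under 0.05 in the control, Cl1 and Cl10. These are from a chi-square test scaled by total counts without the TMM factors, so differences in composition between libraries enter them.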

Additional observations from a re-analysis of the deposited data

Results flagged for a closer look

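For 7 of the 8 tested members the effects in the clones differed from each other by edgeR's direct test of Cl10 against Cl1. Of all 19818 genes tested in this comparison, 49% passed, and the clones share their control. On the log2 scale, Cl10 was below Cl1 for SERPINB1 (-1.005), SERPINB13 (-1.64), SERPINB3 (-1.72) and SERPINB4 (-5.20). Cl10 was above Cl1 for SERPINB2 (3.03), SERPINB8 (0.73) and SERPINB7 (0.91), the last with adjusted p between 0.024 and 0.212 over the alternatives. SERPINB13 was the only member whose change passed in each clone and in opposite directions, a pattern whose share over all genes is not given here. With 2 libraries per group, single libraries were not examined as outliers.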

How the results depend on the processing

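Over the alternatives run, 91 of 97 values of the members in Cl1, 94 of 97 in Cl10 and 86 of 96 between the clones kept their direction and their side of the threshold. With a log2 fold change above 1 also needed, 1 member passed in Cl1 (7.55% of all genes), 3 in Cl10 (13.4%) and 5 between the clones (10.8%). Leaving out 1 library gave 3 to 4, 6 to 7 and 6 to 7 members past the test. Signs turned only for values that had not passed. SERPINB4 in Cl1 went from 0.08 to -0.12 without control replicate 2, -0.17 without Cl1 replicate 2 and -0.26 when summed with SERPINB3, and ranged from -0.17 to 0.32 over the fits without 1 library. SERPINB7 in Cl1 went to -0.046 with scaling by library size only and to -0.30 without control replicate 2 (0.53 without control replicate 1). CTSS in Cl1 went to -0.0036 with library size only, -0.084 against the 50 nearest genes and -0.15 without Cl1 replicate 2 (0.24 without control replicate 2). Between the clones, SERPINB5 went to -0.11 against the 50 nearest genes and passed with library size only (0.16, adjusted p = 0.0348, edgeR). The causes were not tested.

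The replicate numbers showed no sign of pairing the libraries (correlations of deviations -0.068, -0.018 and 0.010). Whether the libraries were paired is not said in the sources used here. The replicate block gave 4, 7 and 7 members past the test and 4841, 8681 and 9894 genes in all, against 5064, 8439 and 9706. With the block, SERPINB7 passed in Cl10 (adjusted p = 0.0403, edgeR). DESeq2 called 4348, 7388 and 7996 genes. With at least 10 counts needed in every library, SERPINB2 in Cl1, SERPINB4 in Cl10 and both genes between the clones could not be tested, and 3, 5 and 5 members passed. Of the members, SERPINB2, SERPINB4 and SERPINB7 rest on the lowest counts, and the 2 libraries per group limit each error.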
